A study of Mus musculus with 16 samples.

Results

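Integrins and laminins were described in 16 bulk RNA-seq libraries of transplanted mouse glioblastoma, a malignant brain tumour, with and without depletion of tumour-associated macrophages (TAMs). The genes were those named Itga, Itgb, Lama, Lamb or Lamc followed by a chain number or letter, which gave 37 of the 26466 genes in the deposited table of all libraries: 18 integrin alpha chains, 8 integrin beta chains and 11 laminin chains. All 37 passed the filter on low values, as did 26463 of 26466 genes. The groups were 4 Type 2 TAM depleted, 4 Type 2 Control, 3 Type 1 TAM depleted and 5 Type 1 Control tumours. The labels give each sample as tumour tissue of 1 of these groups in a transplanted model. TAMs are the macrophages and microglia that live in a tumour. Not given in the sources used here are how they were depleted, the strain, age and sex of the animals, and what distinguishes Type 1 from Type 2.

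Integrins are cell surface receptors made of 1 alpha and 1 beta chain, and they tie the cell's skeleton to the matrix outside it or to other cells. The chains that pair with Itgb2, and those that pair with Itgb7, are carried mainly by leukocytes, macrophages among them, and bind adhesion molecules on other cells. The chains that pair with Itgb1, Itgb3, Itgb5, Itgb6 or Itgb8 mostly bind collagens, laminins, fibronectin or vitronectin. Laminins are secreted trimers of 1 alpha, 1 beta and 1 gamma chain that form the first sheet of a basement membrane. In the brain such membranes surround the blood vessels and the outer surface, and gliomas are known to spread along them. Below, 7 leukocyte integrin genes (Itgal, Itgam, Itgax, Itgad, Itgae, Itgb2 and Itgb7) are set against 17 matrix integrin genes. Itga4 and Itga9, which bind both cells and matrix, are counted in neither group.

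Depth was 4.21 to 18.3 M (mega) recovered reads per library, 14.3 to 15.95 M in Type 1 TAM depleted and 5.83 to 7.63 M in Type 1 Control libraries. Libraries fell into 2 sets by their reads in 974 olfactory and vomeronasal receptor genes, genes known from the sense of smell. A high-background set of 9 libraries had 2666 to 8480 such reads per M and a low-background set of 7 had 94.98 to 779. All 3 Type 1 TAM depleted libraries were low and all 5 Type 1 Control libraries high, so background, depth and treatment cannot be told apart in Type 1. The single gene model Gm10800 took 0.233% to 2.03% of reads in Type 1 TAM depleted and 16.6% to 35.1% in Type 1 Control libraries. In Type 2, TAM depleted 3 and 4 and Control 1 and 3 were high. Between the sets in Type 2, Itgb6, Itgad and Lamb3 differed by 4.09, 3.29 and 2.14 on the log2 scale (high minus low, mean over both groups). Lama3 and Itga8 differed by 1.73 and 1.14, Itgav by -1.06, and 31 of 37 genes by less than 1 in that mean. Differences of opposite sign in the 2 groups offset each other there. Itgax differed by -2.18 among Control and 0.84 among TAM depleted tumours. In the same order Itgb2 differed by -1.66 and 0.18, Itgae by -0.41 and 2.02 and Lama2 by 1.69 and -0.29. The labels do not say which tumours came from separate animals, and p-values here cover only the spread among these samples.

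Levels between genes are compared as normalized count per kb of exon. Itgb1, the beta chain shared by most matrix receptors, was the most abundant of the 37 in every group. It averaged 475 ± 219 per kb in Type 2 TAM depleted and 1088 ± 311 in Type 2 Control tumours (SD, n = 4 each), and 518 ± 119.9 (n = 3) in Type 1 TAM depleted and 333 ± 103 (n = 5) in Type 1 Control tumours. Next in Type 2 Control came Itgav, a vitronectin receptor chain, at 187 ± 105 per kb, Lamc1, the common laminin gamma chain, at 170.4 ± 35.9, and Lama4, a laminin alpha chain of blood vessels, at 135 ± 62.2. Their spreads overlap, and the order among them is not resolved. Of the leukocyte chains, Itgb2, the partner of Itgal, Itgam, Itgax and Itgad, averaged 52.3 ± 23.5 per kb in Type 2 TAM depleted and 126 ± 88.3 in Type 2 Control tumours, and Itgax averaged 18.6 ± 6.18 and 99.1 ± 75.6 in the same order. Itgb2 was above Itgax in every Type 2 TAM depleted tumour, and in the other 3 groups the order of these chains is not resolved.

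Itgam, the alpha chain of the macrophage receptor CD11b/CD18, stood near the bottom in all 4 groups, at 5.97 ± 3.48 per kb in Type 2 TAM depleted and 10.8 ± 3.597 in Type 2 Control tumours. In the GENCODE vM21 annotation of GRCm38, 3450 of its exon bases (68.7%) are also exon of Gm49368, a protein-coding gene model on the same strand, which is not among the genes analysed here. How reads that fall in both were counted by the authors is unstated in the labels, so the Itgam level is uncertain. The same holds for Itga10, of whose exon 33.5% is shared with the model Gm42957. Of the exon of Itgad, 19.7% is shared with 4 other models, 1 of them, the pseudogene Gm17831, on the same strand. For no other gene did all overlapping models together share more than 8.04% of the exon.

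Promoters of 23 of the 37 genes were found in the RefSeq table of GRCm38.p6, which runs 250 bases before to 50 bases after each gene's start. They are shown for Itgb7 and Itga1, the leukocyte and the matrix integrin with a promoter in that table that fell with depletion in Type 2, and for Itgam, the textbook myeloid integrin. Each is printed 5′ to 3′ on the gene's strand, ending 10 bases past the gene's start in RefSeq. That start is the GENCODE start for Itga1 and Itgam and lies 9 bases inside it for Itgb7. Capitals mark the letters GAGGAA on either strand, the core to which PU.1, an ETS factor of myeloid cells, is known to bind. Itgb7 is at chr15:102231926-102232185 (minus strand), Itga1 at chr13:115101955-115102214 (minus strand) and Itgam at chr7:128062390-128062649 (plus strand).
Itgb7: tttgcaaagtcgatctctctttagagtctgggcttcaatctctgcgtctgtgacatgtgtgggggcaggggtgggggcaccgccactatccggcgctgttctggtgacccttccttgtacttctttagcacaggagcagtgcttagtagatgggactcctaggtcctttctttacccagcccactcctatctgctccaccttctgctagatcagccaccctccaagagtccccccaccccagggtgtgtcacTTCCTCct
Itga1: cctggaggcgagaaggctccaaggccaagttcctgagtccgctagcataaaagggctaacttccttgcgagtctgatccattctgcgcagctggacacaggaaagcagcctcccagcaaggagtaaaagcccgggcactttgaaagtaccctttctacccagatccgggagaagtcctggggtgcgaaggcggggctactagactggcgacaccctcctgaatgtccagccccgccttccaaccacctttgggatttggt
Itgam: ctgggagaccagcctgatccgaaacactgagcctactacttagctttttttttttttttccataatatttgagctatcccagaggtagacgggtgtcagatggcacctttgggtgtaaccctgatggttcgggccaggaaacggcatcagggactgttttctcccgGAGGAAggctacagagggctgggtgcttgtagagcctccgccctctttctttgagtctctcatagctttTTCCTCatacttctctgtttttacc
In the full windows of 300 bases the letters occurred once in Itgb7, at base 3 from the RefSeq start, not at all in Itga1, and 3 times in Itgam, 84 and 15 bases before the start and at base 33 after it, which lies past the printed end. They occurred in 14 of 26 promoter windows of these genes and in 28.3% of the 32851 windows of all genes. By gene group they occurred in 2 of 3 leukocyte integrin, 7 of 15 matrix integrin and 5 of 6 laminin windows. Itgax, a leukocyte integrin whose promoter is not printed, had 0 matches. The printed promoters thus do not stand for their gene groups. A match describes the letters only.

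TAM depleted Type 2 tumours had less RNA of 2 leukocyte integrins, of 1 collagen receptor chain and of 1 vascular laminin chain than Type 2 Control tumours, each lower by 3.27- to 4.25-fold. Of the 37 genes, 4 fell and 0 rose at an adjusted p under 0.05 (limma-trend), where 1.24% of all genes tested fell and 2.37% rose. They were Itga1, Lama4, Itgal and Itgb7. At an unadjusted p under 0.05, 18 of 37 were lower and 0 higher, against 8.16% and 9.81% of all genes. In 7 of 37 every depleted tumour was below every control and in 0 above, where this held for 3.39% and 3.86% of all genes. The log2 fold change was below 0 for 30 of 37, with a median of -0.95, beside -0.21 over all genes. That median of all genes moved to -0.41 with upper quartile scaling and -0.05 with quantile scaling, and the fold changes here are read against it. In bulk tumour RNA, fewer cells of a type and less RNA per cell cannot be told apart.

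Among leukocyte integrins, 2 of 7 fell, and all 7 had a fold change below 0, with each of the scalings too (median -1.57). Itgal, which with Itgb2 forms the receptor LFA-1 for ICAM molecules, lies at chr7:127296260-127335138, plus strand (GRCm38). It had normalized counts of 23.9, 103, 57.2 and 98.3 in Type 2 TAM depleted tumours 1 to 4, against 157, 451, 226 and 274 in Type 2 Control tumours 1 to 4. Every depleted tumour was below every control. The fall was 4.15-fold, a log2 fold change of -2.05 ± 0.46 (SE) with an adjusted p of 0.0245. Itgb7 (chr15:102215995-102231944, minus strand) pairs with Itga4 and Itgae and serves lymphocyte homing to the gut. Its counts were 13.1, 41.3, 39.9 and 34.4 in TAM depleted and 75.1, 81.8, 192 and 80.5 in Control tumours. Here too the groups did not overlap, with 1 depleted tumour far below and 1 control far above the others of their groups. Itgb7 fell by 3.27-fold (log2 fold change -1.71 ± 0.46 SE, adjusted p = 0.0473).

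The partner Itgb2 and the other alpha chains did not pass the test. Itgax, the CD11c chain of dendritic cells and many macrophages, had counts of 60.9, 66.4, 116 and 113 in TAM depleted and 150.1, 886, 191 and 675 in Control tumours. The groups did not overlap, and the log2 fold change was -2.07 (adjusted p = 0.0548). For Itgb2 the counts were 93.3, 205, 104 and 236 in TAM depleted and 136, 747, 233 and 426 in Control tumours, which overlap, with a log2 fold change of -1.10 (adjusted p = 0.218). Itgam had 29.6, 23.3, 12.9 and 54.1 in TAM depleted and 78.6, 44.5, 37.4 and 56.7 in Control tumours and a fold change of -0.95 (adjusted p = 0.318). For Itgb2 controls 2 and 4 were above every depleted tumour, and for Itgam controls 1 and 4 were. The remaining leukocyte chains were Itgad at -1.57 (adjusted p = 0.414) and Itgae at -1.28 (adjusted p = 0.235). Itgad rested on as few as 2 reads in a library.

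The calls differed in how far they held. Without TAM depleted tumour 1, or without Control tumour 3, Itga1 and Lama4 alone passed, with Itgal at -1.61 (adjusted p = 0.0676) and -2.12 (adjusted p = 0.0691). Itgb7 missed the threshold when any 1 of the libraries but Type 1 TAM depleted 3 was left out, 15 of 16 (adjusted p 0.0503 to 0.161). Over 29 alternatives, the 16 left-out libraries included, Itga1 and Lama4 each missed it in 2, Itgal in 5 and Itgb7 in 21. Among those for Itgb7 were quantile scaling (adjusted p = 0.144) and library quality weights (adjusted p = 0.127). Itgax passed in 10 of 29, with quantile scaling (adjusted p = 0.0253) and limma-voom (adjusted p = 0.0453) among them. In the table of Type 2 libraries alone 0 of the 37 passed, as did 0% of all genes in that table, and 13 of 37 were lower and 0 higher at an unadjusted p under 0.05, where 4.73% and 7.61% of all genes were. There Itga1 was at -2.07 (adjusted p = 0.112) and Lama4 at -2.01 (adjusted p = 0.112).

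**Figure D1:**
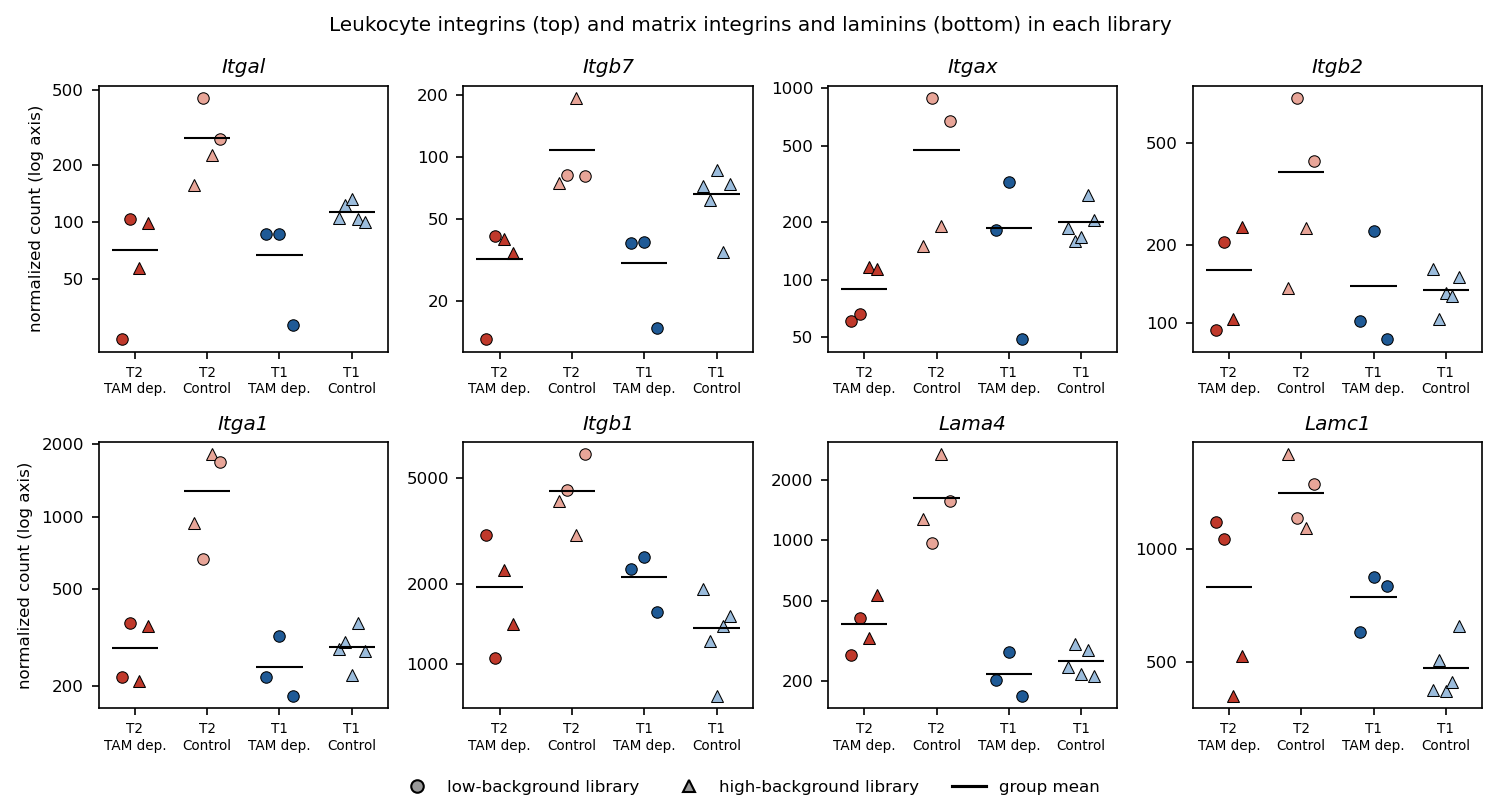
Normalized counts (log axis) of 4 leukocyte integrin genes (top row) and of 2 matrix integrin and 2 laminin genes (bottom row) in each of the 16 libraries, by group (T2 is Type 2, T1 is Type 1, TAM dep. is TAM depleted). Circles are low-background and triangles high-background libraries, and lines are group means. Itga1 and Lama4 are higher in all 4 Type 2 Control tumours than in any other library, while Itgax and Itgb2 are highest in the 2 low-background Type 2 Control tumours.

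Of the 17 matrix integrins, 1 fell, and 13 had a fold change below 0 (median -1.08; 13 with quantile and 14 with upper quartile scaling). Itga1, a receptor chain for collagen IV (chr13:114953096-115101964, minus strand), had counts of 216, 363, 208 and 354 in Type 2 TAM depleted and 940.1, 666, 1809 and 1682 in Type 2 Control tumours. The lowest control lay well above the highest depleted tumour. It fell 4.25-fold (log2 fold change -2.09 ± 0.33 SE, adjusted p = 0.00917). The other collagen receptor chains were Itga2 at -1.49 (adjusted p = 0.0792), Itga10 at -1.16 (adjusted p = 0.095) and Itga11 at 0.34 (adjusted p = 0.729), none past the test. Itgb1, the partner of all 4, had counts of 3047, 1048, 2248 and 1414 in TAM depleted and 4089, 4506, 3056 and 6111 in Control tumours. The highest depleted tumour came just under the lowest control, and the log2 fold change was -1.27 (adjusted p = 0.0671).

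Among receptors for the RGD motif of fibronectin and vitronectin, 0 of 8 passed the test and 6 had a fold change below 0. Itga5, the fibronectin receptor chain, had 314, 165, 154 and 215 in TAM depleted and 297, 446, 815 and 334 in Control tumours, with a log2 fold change of -1.09 (adjusted p = 0.132). Itgav had 1737, 1639, 506 and 1031 in TAM depleted and 1126, 1675, 1578 and 3668 in Control tumours and -0.72 (adjusted p = 0.368). In both the ranges overlap, and for Itgav 1 control stands high. Itgb8, which with Itgav activates latent TGF-beta and is known from glia, had 2407, 1099.6, 1624 and 780.2 in TAM depleted and 783, 1677, 406 and 1294 in Control tumours, with a log2 fold change of 0.57 (adjusted p = 0.583). The others of this group lay between -1.65 (Itgb3) and 0.14 (Itga8).

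Laminin receptors also stayed short of the threshold, 0 of 4. Itga6, the main laminin receptor chain of neural stem and endothelial cells, had counts of 658, 453, 393 and 377 in TAM depleted and 1383, 533, 738 and 483 in Control tumours, a log2 fold change of -0.64 (adjusted p = 0.339). Itgb4, its partner in epithelia, had 54.6, 244, 147 and 108 in TAM depleted and 136, 275, 454 and 288 in Control tumours and -1.12 (adjusted p = 0.149). Itga7 had 282, 141, 76.6 and 99.98 in TAM depleted and 46.5, 226, 135 and 73.7 in Control tumours and 0.38 (adjusted p = 0.698). The 2 groups overlap for each of these, and Itga3 lay at -0.30 (adjusted p = 0.732). Itga4, which binds VCAM1 and fibronectin and is carried by leukocytes and some other cells, had 191, 433, 320.3 and 339 in TAM depleted and 629, 538, 361 and 765 in Control tumours. Its log2 fold change was -0.84 (adjusted p = 0.115), and that of Itga9 was -0.42 (adjusted p = 0.687).

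Of the 11 laminin chains, 1 fell and 8 had a fold change below 0 (median -0.60; 10 with each of the other scalings). Lama4 (chr10:38965515-39110188, plus strand) had counts of 267, 408, 325 and 536 in Type 2 TAM depleted and 1283, 967, 2692 and 1579 in Type 2 Control tumours. Every control was above every depleted tumour, and the fall was 4.07-fold (log2 fold change -2.03 ± 0.32 SE, adjusted p = 0.00917). Lama5, the other alpha chain of vascular basement membranes, had 250.3, 478, 249 and 125 in TAM depleted and 450.4, 556, 748 and 401 in Control tumours, with -1.08 (adjusted p = 0.078). Lamc1 had 1183, 1063, 407 and 519.6 in TAM depleted and 1791, 1213, 1139.7 and 1495 in Control tumours, with -0.95 (adjusted p = 0.119). For both, 1 depleted tumour reached into the control range. Lamb1 had 462, 521, 194 and 390.1 in TAM depleted and 1051, 544, 619.7 and 564 in Control tumours, which do not overlap, with -0.86 (adjusted p = 0.301). Lamb2 had 184, 380.3, 112 and 144 in TAM depleted and 204, 249, 498 and 385 in Control tumours, with -0.77 (adjusted p = 0.367). Lama2, the laminin chain mutated in a congenital muscular dystrophy, had 193, 461, 137 and 433 in TAM depleted and 701, 112, 307 and 183 in Control tumours and the fold change nearest 0, 0.064 (adjusted p = 0.95), which was -0.93 in the high-background and 1.05 in the low-background tumours. Lama1, Lama3, Lamb3 and Lamc3 lay between -0.60 (Lama1) and 0.13 (Lama3).

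Lama4 also took a smaller part of the laminin alpha RNA. Per kb it made up 28.6% ± 5.43 of the sum of the 5 alpha chains in Type 2 TAM depleted and 53.0% ± 11.3 in Type 2 Control tumours (SD, n = 4 each). The highest depleted tumour had 36.1% and the lowest control 39.4%. Lama1, the alpha chain of the early embryo, made up 23.9% ± 11.6 in TAM depleted and 15.4% ± 4.60 in Control tumours, which overlap. In Type 1 tumours Lama5 led after depletion, with 44.9% ± 2.23 (n = 3) in TAM depleted and 20.8% ± 3.52 (n = 5) in Control tumours. These shares are a description, with no test.

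**Figure D2:**
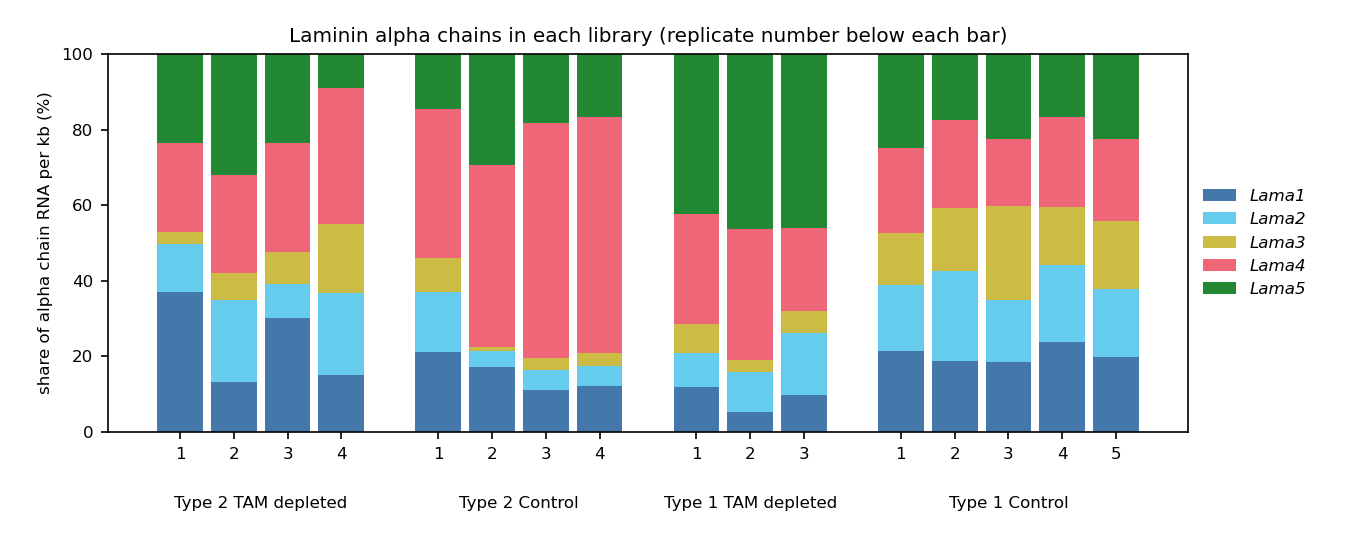
Share (%) of each of the 5 laminin alpha chain genes in their summed normalized count per kb of exon, 1 stacked bar per library, by group. Lama4 averages 28.6% in Type 2 TAM depleted and 53.0% in Type 2 Control tumours, and Lama5 averages 44.9% in Type 1 TAM depleted and 20.8% in Type 1 Control tumours. In Type 1, background and treatment cannot be told apart.

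Markers of cell types moved in both directions in Type 2, where 1.24% of all genes fell and 2.37% rose at an adjusted p under 0.05 (limma-trend). Of 10 macrophage markers, 2 fell in Type 2, Adgre1 (log2 fold change -2.10, adjusted p = 0.0198) and Cd14 (-1.87, adjusted p = 0.0465), and 9 had a fold change below 0. At an unadjusted p under 0.05 (limma-trend), 9 of these 10 were lower, where 8.16% of all genes were. The summed normalized count of the 10 ran over 1431 to 2979.7 in Type 2 TAM depleted and 2656 to 7848 in Type 2 Control tumours, so macrophage RNA was present throughout. Of 8 microglia markers 0 passed the test, and all 8 had a fold change below 0 (median -0.40). Their sums overlapped, at 882 to 2067 in TAM depleted and 1144 to 3681 in Control tumours. The 8 T cell markers summed to 44.9 to 402 in TAM depleted and 373 to 555 in Control tumours, with 0 of 8 past the test, all 8 with a fold change below 0 and Cd3d at 0 in a depleted library. Of 8 neuron markers 6 rose, and their sum was 9331 to 61676 in TAM depleted and 1066 to 6646 in Control tumours. The 8 endothelial markers summed to 1328 to 2089.8 in TAM depleted and 1659 to 3711 in Control tumours, and the 6 fibroblast markers to 1139 to 4343 and 3085 to 9163 in the same order, with 0 of either list past the test. Of 6 astrocyte markers Aqp4 rose (2.04, adjusted p = 0.0387), all 6 had a fold change above 0, and their sum was 10038 to 55644 in TAM depleted and 2484 to 11019 in Control tumours. Of 6 glioma and precursor markers Sox10 fell (-2.01, adjusted p = 0.0424), with sums of 2765 to 12670.4 in TAM depleted and 4468 to 14249 in Control tumours. The 7 mural markers summed to 1847 to 3219 in TAM depleted and 2077 to 7874 in Control tumours. None of the mural markers passed the test, and their median log2 fold change was -0.55. All 5 monocyte markers had a fold change below 0 (median -1.91), with 0 past the test. They summed to 1689 to 8100 in TAM depleted and 3252 to 14066 in Control tumours. All 6 oligodendrocyte markers had a fold change above 0 (median 1.32), with 0 past the test. They summed to 10254 to 33949 in TAM depleted and 3034 to 15493 in Control tumours. Of these lists only Cd3d was at 0 in a Type 2 library. The part of these cell types in the fold changes above was not tested.

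Leukocyte and matrix integrins both had lower mean levels in TAM depleted Type 2 tumours, and the ranges of the gap between the 2 kinds of integrin overlapped. The mean log2(normalized count + 1) of the 7 leukocyte integrins was 5.42 ± 0.73 in Type 2 TAM depleted and 6.96 ± 0.26 in Type 2 Control tumours (SD, n = 4 each). For the 17 matrix integrins it was 7.36 ± 0.22 in TAM depleted and 8.13 ± 0.32 in Control tumours. Neither pair of ranges overlaps. The leukocyte level minus the matrix level was -2.59, -2.23, -1.52 and -1.41 in TAM depleted tumours 1 to 4 and -1.66, -0.66, -1.32 and -1.08 in Control tumours 1 to 4. The means were -1.94 ± 0.57 in TAM depleted and -1.18 ± 0.42 in Control tumours, a difference of -0.76, which was -0.40 with quantile scaling. In Type 1 the gap was -1.23, -1.10 and -2.45 in TAM depleted tumours 1 to 3 and -1.27, -1.22, -1.05, -1.43 and -0.82 in Control tumours 1 to 5. Depleted tumour 3 alone lay below the controls, and the difference of the means was -0.43 with it and -0.0061 without it. No p is given for such a score, since its genes were chosen with results of these data known.

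**Figure D3:**
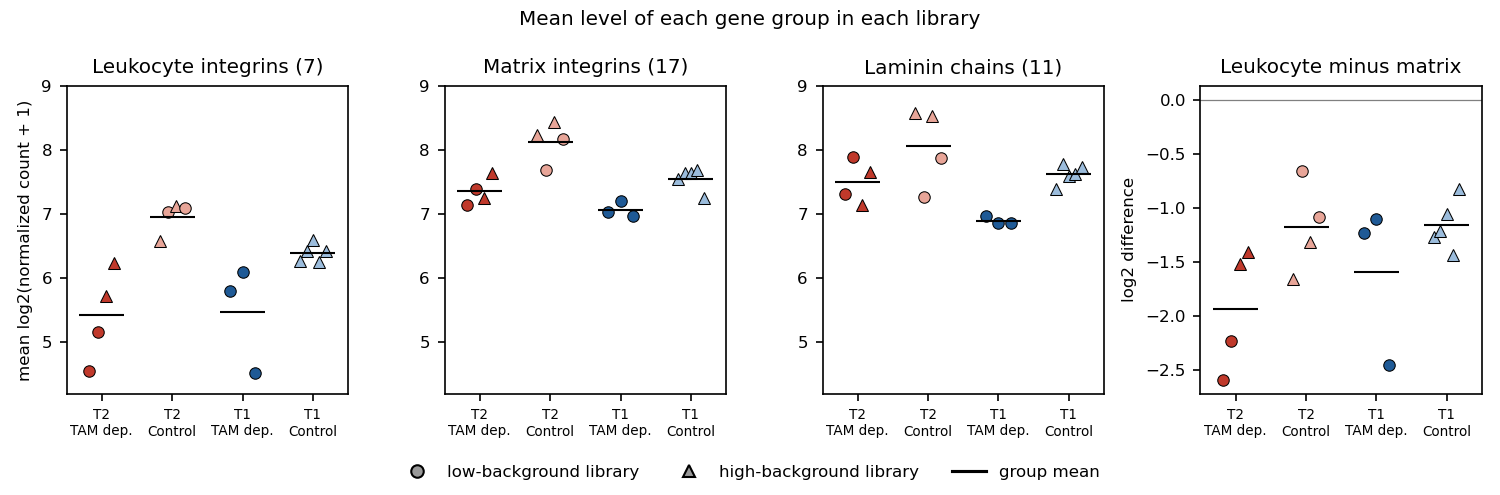
Mean log2(normalized count + 1) of the 7 leukocyte integrins, the 17 matrix integrins and the 11 laminin chains, and the leukocyte minus the matrix level, in each library by group (T2 is Type 2, T1 is Type 1, TAM dep. is TAM depleted). Circles are low-background and triangles high-background libraries, and lines are group means. Leukocyte and matrix levels of Type 2 TAM depleted tumours lie below all Type 2 Control tumours, while the leukocyte minus matrix values overlap in both tumour kinds.

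Within the background sets 6 of the 7 leukocyte integrins, all but Itgam, had fold changes further below 0 in the low-background tumours, while Itga1 and Lama4 lay far below 0 in both. In the high-background Type 2 tumours (2 TAM depleted, 2 Control) the median log2 fold change was -0.997 for leukocyte integrins, -0.97 for matrix integrins and -1.06 for laminins. In the low-background tumours (2 against 2) it was -2.02 for leukocyte integrins, -1.06 for matrix integrins and -0.17 for laminins. The gap between leukocyte and matrix levels, TAM depleted minus Control, was 0.024 in the high set and -1.54 in the low set. The macrophage markers had a median of -0.40 in the high and -2.06 in the low set, and the T cell markers -1.06 in the high and -2.97 in the low set, and their part in the difference was not tested. Itga1 was at -2.26 (adjusted p = 0.0272) in the high and -1.91 (adjusted p = 0.365) in the low set. Lama4 was at -2.15 (adjusted p = 0.0379) and -1.90 (adjusted p = 0.365). Each fit left 2 residual degrees of freedom, to which limma-trend added 51.8 from all genes in the high and 3.34 in the low set. The p-values of the high set thus rest mostly on a spread borrowed from other genes, and those of the 2 sets are not comparable. Itgal was at -1.32 in the high and -2.79 in the low set, and Itgb7 at -1.67 and -1.75, past the test in neither. In the low set 0 of 37 passed, as did 0% of all genes, and 9 of 37 were lower and 1 higher at an unadjusted p under 0.05, where 7.83% and 5.45% of all genes were. Itgax and Itgb2 had -0.56 and -0.19 in the high set, against -3.58 and -2.02 in the low set. The difference between the sets was not tested. In the high set Itga1 and Lama4 were the 2 of 37 that fell, where 0.321% of all genes fell and 1.66% rose. With the background set as a block, 11 of the 37 fell and 0 rose, where 4.32% of all genes fell and 5.64% rose. They were the 4 above and Itgax, Itgb1, Itga2, Itga10, Itgb3, Lama5 and Lamc1.

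**Figure D4:**
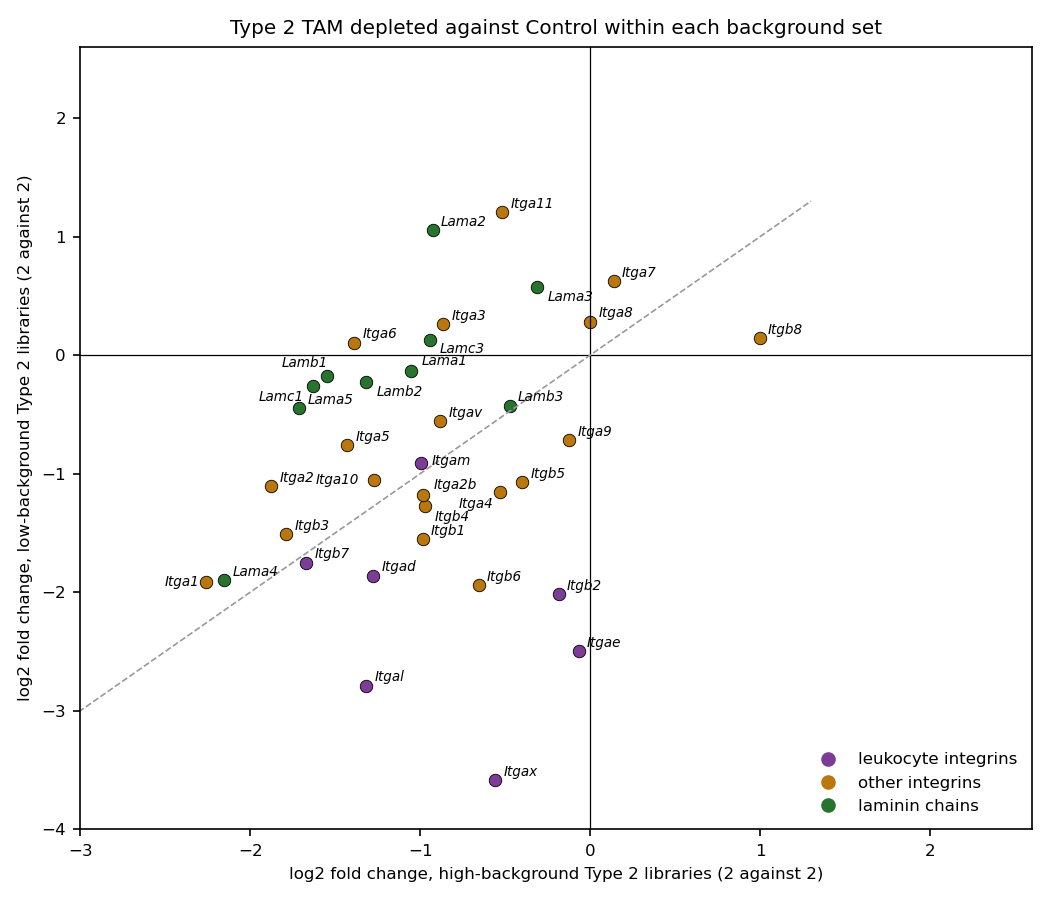
Log2 fold change of 36 of the 37 genes, Type 2 TAM depleted against Type 2 Control, in the high-background libraries (x axis, 2 against 2) and in the low-background libraries (y axis, 2 against 2), with the line of equal values dashed. Itga1, Lama4 and Itgb7 lie near the line, Itgal, Itgax, Itgae and Itgb2 lie below it, and the laminin chains lie on or above it.

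RNAs of proteins that laminins and integrins work with were also lower in places. Over all genes in Type 2, 1.24% fell and 2.37% rose at an adjusted p under 0.05 (limma-trend). The median log2 fold change of all genes was -0.21. Of 12 basement membrane partners of laminin, 4 fell in Type 2 and 0 rose, and 11 had a fold change below 0 (median -1.16). They were Ntn4, a laminin-related netrin (-1.69, adjusted p = 0.0142), Nid2, a nidogen that links laminin to collagen IV (-1.40, adjusted p = 0.0181), Col4a1, a collagen IV chain (-1.37, adjusted p = 0.0432), and Hspg2, the proteoglycan perlecan (-1.89, adjusted p = 0.0486). Hspg2 averaged 1682 ± 1133 in TAM depleted and 5238 ± 2414 in Control tumours (SD, n = 4 each). Of 21 adaptors and kinases measured, 3 fell and 0 rose: Fermt3, the kindlin of blood cells (-1.46, adjusted p = 0.0289), Parvg, the parvin of blood cells (-1.19, adjusted p = 0.0448), and Nedd9, a docking protein (-1.88, adjusted p = 0.0304). Ilk was not analysed here. Of 15 integrin ligands, Thbs1, thrombospondin, was the 1 that fell (-1.72, adjusted p = 0.0311), and 0 rose.

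Type 1 tumours gave 0 calls among the 37 genes, as they did among all genes (0% called, limma-trend; limma-voom also called 0 of the 37). At an unadjusted p under 0.05, 11 of 37 were lower and 0 higher, where 24.5% of all genes were lower and 5.81% higher. The median log2 fold change was -0.80 for leukocyte integrins, -0.42 for matrix integrins and -0.85 for laminins, beside -0.06 over all genes. That last median was -0.44 with upper quartile and 0.06 with quantile scaling. Of the 7 leukocyte integrins all 7 had a fold change below 0, 6 with quantile scaling.

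Of the Type 1 leukocyte integrins, Itgal and Itgad had every depleted tumour below every control, and the other 5 overlapped. Itgad rested on as few as 6 reads in a depleted tumour. It also differed by 3.29 on the log2 scale between the background sets in Type 2 (high minus low). In Type 1, background and treatment cannot be told apart. In all, 13 of 37 genes were lower and 1 higher with no overlap, where 28.6% and 10.5% of all genes were. Itgal had counts of 86.5, 85.9 and 28.6 in Type 1 TAM depleted tumours 1 to 3 and 104, 123, 132, 104 and 99.2 in Type 1 Control tumours 1 to 5 (log2 fold change -0.89, adjusted p = 0.205). For Itgax they were 183, 325 and 48.7 in TAM depleted and 187, 159, 167, 277 and 204 in Control tumours (-0.45, adjusted p = 0.592). Itgb2 had 102, 227 and 85.9 in TAM depleted and 162, 103, 129.98, 127 and 149.8 in Control tumours (-0.079, adjusted p = 0.913). In both, the depleted tumours spread past the controls on either side. Itgam had 10.1, 26.6 and 14.3 in TAM depleted and 16.5, 41.6, 46.2, 18.1 and 30.7 in Control tumours (-0.80, adjusted p = 0.269), and Itgb7 had 38.2, 38.7 and 14.9 and 72.3, 61.7, 86.2, 34.7 and 74.0 in the same order (-1.13, adjusted p = 0.127). Depleted tumour 3 was the lowest of the depleted for Itgal, Itgax, Itgb2 and Itgb7. The macrophage markers summed to 1393, 1406 and 2772 in the 3 TAM depleted tumours, from lowest to highest. In Control tumours they summed to 1428 to 2772, with a median of 1926. The ranges overlap through the highest depleted tumour, and the others lay below every control. Of the 10 macrophage markers 0 passed the test, and 8 had a fold change below 0 (median -0.17). The 8 T cell markers summed to 27.5 to 216 in TAM depleted and 243 to 379 in Control tumours, which do not overlap, with 0 of 8 past the test, all 8 with a fold change below 0 (median -1.88) and Cd3d and Cd2 at 0 in a depleted library. Their part in the fold changes was not tested.

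Among the Type 1 matrix integrins and laminins, Itgb6, Lama3, Lamb3 and Itga8 were genes whose levels also differed between the background sets in Type 2. Itgb6, an epithelial chain, had 14.6, 9.08 and 1.15 in Type 1 TAM depleted and 76.4, 128, 106, 136 and 83.0 in Type 1 Control tumours (-3.90, adjusted p = 0.103), from as few as 2 reads. Lama3 and Lamb3, laminin chains known from epithelia, had log2 fold changes of -2.36 and -2.16 (adjusted p = 0.103 and 0.105), and Itga8, an RGD receptor chain, -1.82 (adjusted p = 0.103). Lama1 had 65.1, 33.3 and 60.2 in TAM depleted and 178, 198, 179.97, 229 and 155 in Control tumours, with no overlap (-1.86, adjusted p = 0.103). In Type 2 its levels differed between the background sets, high minus low, by -0.10 among TAM depleted and by 0.82 among Control tumours, and both high controls were above both low ones. Lama2 had 84.8, 116 and 168 in TAM depleted and 247, 423, 269, 333 and 236 in Control tumours (-1.31, adjusted p = 0.115). High minus low, Lama2 differed in Type 2 by -0.29 among TAM depleted and by 1.69 among Control tumours. For it too both high controls were above both low ones. The Type 1 fold change was above 0 for Lamb1 and, except with quantile scaling (-0.028), for Itgb1. Itgb1 had 2269, 2509.6 and 1568 in TAM depleted and 1910.04, 1220.1, 759.9, 1393 and 1510.3 in Control tumours (0.67, adjusted p = 0.232). Lamb1 had 1738, 1155 and 525 in TAM depleted and 499, 514, 306, 731 and 978 in Control tumours (0.86, adjusted p = 0.192). Lamc1 had 601, 842 and 797 in TAM depleted and 421, 507, 419, 442 and 624 in Control tumours (0.63, adjusted p = 0.205), overlapping by 1 tumour.

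The genes called in Type 2 or between the controls mostly overlapped in Type 1. Itga1 had 218, 320.1 and 182 in TAM depleted and 284, 304, 221, 363 and 278 in Control tumours (-0.30, adjusted p = 0.537). Lama4 had 200.5, 278 and 168 in TAM depleted and 232, 306, 215, 285 and 211 in Control tumours (-0.23, adjusted p = 0.62). For both, the 2 groups overlapped. Itga4 had 284, 244 and 293 in TAM depleted and 225, 258, 176, 231 and 259.8 in Control tumours (0.26, adjusted p = 0.529). Itga5 had 101, 339 and 109 in TAM depleted and 138, 142, 146, 155 and 168 in Control tumours (0.051, adjusted p = 0.932). For Itga5 a single depleted tumour was above all controls and the others were below them. Lama5 had 273, 350.4 and 328 in TAM depleted and 244, 217, 256, 189.95 and 206 in Control tumours (0.51, adjusted p = 0.296). Lamb2 had 73.0, 113 and 267 in TAM depleted and 100.2, 111, 154, 87.4 and 86.6 in Control tumours (0.31, adjusted p = 0.624). Lama5 was the 1 gene of the 37 with every depleted tumour above every control.

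Laminin receptors and the TGF-beta activating pair showed single tumours apart from their group. Itga6 had 461, 767 and 721 in Type 1 TAM depleted and 717, 537, 472, 562 and 336 in Type 1 Control tumours (0.32, adjusted p = 0.522). Itga7 had 398, 295 and 281 in TAM depleted and 304, 253, 232, 269.9 and 101 in Control tumours (0.56, adjusted p = 0.427). Itgb4 had 82.0, 67.8 and 52.1 in TAM depleted and 100.2, 115, 166, 113 and 105 in Control tumours (-0.82, adjusted p = 0.197). Of these 3 genes Itgb4 had every depleted tumour below every control, and control tumour 5 was far below the other controls for Itga7. Itgav had 817, 776 and 1253 in TAM depleted and 664, 723, 847, 899 and 565 in Control tumours (0.34, adjusted p = 0.554). Itgb8 had 791, 1094 and 1894 in TAM depleted and 1074, 1045, 777, 846 and 267 in Control tumours (0.71, adjusted p = 0.346). Depleted tumour 3 was far above every control in both, and the other depleted tumours lay among or just above the controls. Calls in Type 1 depended on the table. In the table of Type 1 libraries alone 6 of the 37 were higher and 8 lower, where 22.5% of all genes were higher and 32.6% lower. With library quality weights 2 were higher and 13 lower, where 19.7% and 32.2% of all genes were.

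**Figure D5:**
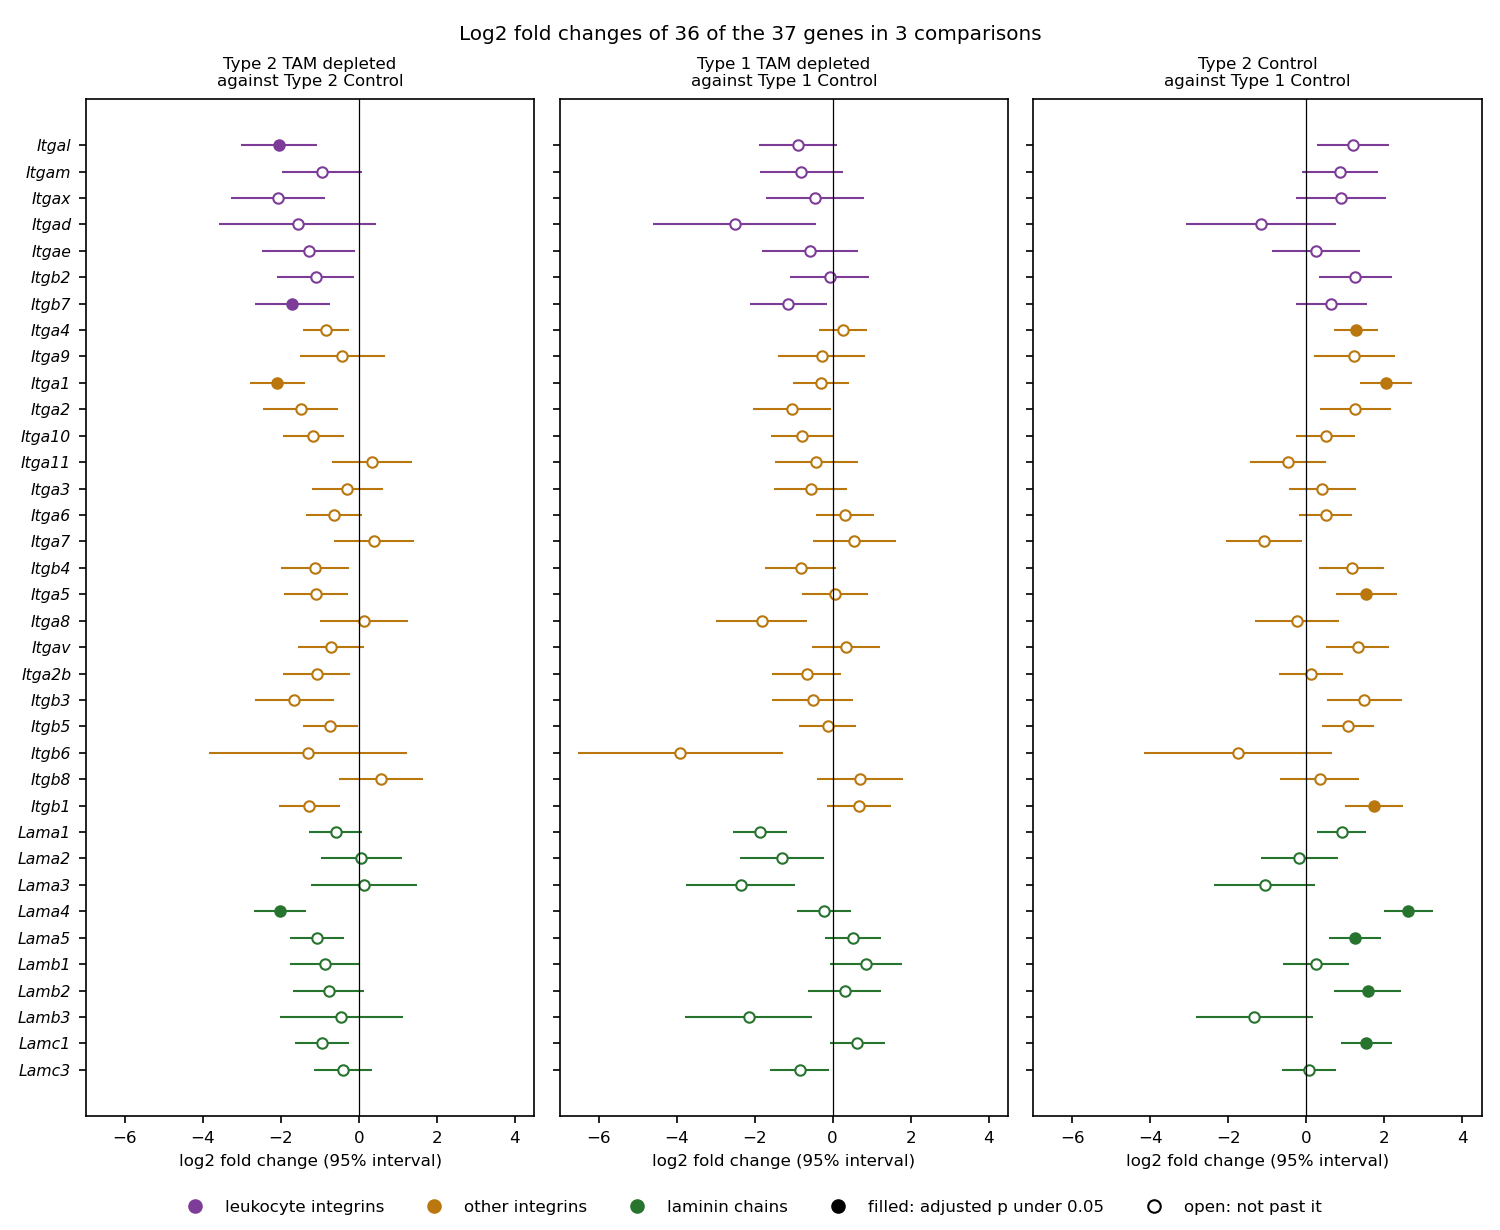
Log2 fold changes (points) with 95% intervals (lines) of 36 of the 37 genes in 3 comparisons, filled where the adjusted p is under 0.05 (limma-trend) and coloured by leukocyte integrins, other integrins and laminin chains. In Type 2 depletion 4 genes are filled, all below 0, in Type 1 depletion 0 are filled, and between the controls 8 are filled, all above 0.

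The test of the difference of the depletion responses, Type 2 minus Type 1, passed for 0 of 37 genes and for 0% of all genes (limma-trend; limma-voom 0 of 37). At an unadjusted p under 0.05, 4 of 37 were higher and 7 lower, where 5.2% and 4.87% of all genes were. The difference was -1.80 for Lama4 (95% interval -2.76 to -0.84, adjusted p = 0.433), -1.79 for Itga1 (-2.80 to -0.78, adjusted p = 0.433) and -1.94 for Itgb1 (-3.07 to -0.81, adjusted p = 0.433). For Itgal it was -1.16 (-2.56 to 0.23, adjusted p = 0.517) and for Itgb7 -0.58 (-1.96 to 0.81, adjusted p = 0.692). Without library weights the falls called in Type 2 are thus not shown to differ from Type 1. With library quality weights 3 of 37 were higher and 5 lower, where 1.67% and 1.16% of all genes were, with Itga1 at -2.18 (adjusted p = 0.0322) and Lama4 at -1.89 (adjusted p = 0.0355) among those lower, and Itgal and Itgb7 were not among them.

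Type 2 Control tumours had more RNA of 3 matrix integrins, of 4 laminin chains and of Itga4 than Type 1 Control tumours. Of the 37 genes, 8 were higher and 0 lower at an adjusted p under 0.05, where 2.28% of all genes were higher and 0.816% lower (limma-trend). None of the 8 was among the 7 leukocyte integrins, of which 6 had a fold change above 0 (median 0.86). The median over all genes was -0.23, and it was -0.04 with quantile, -0.34 with upper quartile scaling and 0.13 with the background set as a block. Type 2 Control tumours enter this comparison and the Type 2 depletion comparison alike, so the 2 share those samples. Lama4 had counts of 1283, 967, 2692 and 1579 in Type 2 Control and 232, 306, 215, 285 and 211 in Type 1 Control tumours and was 6.11-fold higher (log2 fold change 2.61 ± 0.30 SE, adjusted p = 0.00012). Itga1 was 4.09-fold higher (2.03 ± 0.32 SE, adjusted p = 0.00144). For both, the lowest Type 2 Control tumour was above the highest Type 1 Control tumour.

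The other 6 were Lamc1 (log2 fold change 1.54, adjusted p = 0.00911), Itgb1 (1.73, adjusted p = 0.0105), Itga4 (1.28, adjusted p = 0.0131), Itga5 (1.54, adjusted p = 0.0279), Lama5 (1.24, adjusted p = 0.0377) and Lamb2 (1.57, adjusted p = 0.0449), and none of them overlapped between the groups. Itgb1 had 4089, 4506, 3056 and 6111 in Type 2 Control and 1910.04, 1220.1, 759.9, 1393 and 1510.3 in Type 1 Control tumours. Lamb2, a laminin beta chain, had 204, 249, 498 and 385 in Type 2 Control and 100.2, 111, 154, 87.4 and 86.6 in Type 1 Control tumours. At an unadjusted p under 0.05, 17 of 37 were higher and 1 lower, where 8.47% and 5.28% of all genes were. In all, 13 of 37 were higher with no overlap and 0 lower, where 5.03% and 1.93% of all genes were. With the high-background libraries alone (2 Type 2 Control, 5 Type 1 Control), 10 of 37 were higher and 0 lower, where 1.81% and 3.13% of all genes were, Lama4 and Itga1 among them. Itga4 was not (1.06, adjusted p = 0.0858). With the background set as a block 7 were higher and 0 lower, where 1.82% and 2.81% of all genes were, and Lama5 (adjusted p = 0.0873) and Lamb2 (adjusted p = 0.107) no longer passed. When 1 library was left out, Itga4 missed the threshold without Type 2 Control 4 (adjusted p = 0.0505). Itga5 did so without Type 2 Control 2 or 3 or any Type 1 Control tumour (0.0538 to 0.112), and Lama5 without these or without Type 1 or Type 2 TAM depleted 1 (0.0505 to 0.135). Lamb2 did so in 10 of 16 cases (0.0502 to 0.153), without Type 1 Control 1, 2, 4 or 5, Type 2 Control 2, 3 or 4, Type 1 TAM depleted 2 or Type 2 TAM depleted 1 or 4. Lama4, Itga1, Lamc1 and Itgb1 passed in all 16. Of the basement membrane partners 9 of 12 were higher and 0 lower, led by Nid2 (2.18, adjusted p = 0.000223), Hspg2 (3.39, adjusted p = 0.000751), Col4a1 (2.34, adjusted p = 0.00086) and Dag1, the laminin receptor dystroglycan (2.11, adjusted p = 0.000954). Of 21 adaptors 5 were higher and 0 lower, led by Tns3, a tensin (2.45, adjusted p = 0.000541), Lims2, a PINCH adaptor (2.93, adjusted p = 0.000676), Tln1, talin (1.81, adjusted p = 0.00183) and Pxn, paxillin (1.85, adjusted p = 0.002). Of 15 ligands Jam3 (2.07, adjusted p = 0.000386), Thbs1 (1.86, adjusted p = 0.0117) and Fn1, fibronectin (3.49, adjusted p = 0.0152) were higher and 0 lower. Over all genes 2.28% were higher and 0.816% lower at an adjusted p under 0.05 (limma-trend).

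Cell type markers differed between the controls as well, where 2.28% of all genes were higher and 0.816% lower at an adjusted p under 0.05 (limma-trend). The fibroblast markers Col3a1 (2.25, adjusted p = 0.00899) and Pdgfra (2.49, adjusted p = 0.019) were higher in Type 2 Control, 2 of 6, and the mural marker Cspg4 (3.68, adjusted p = 0.00116) was, 1 of 7. The 6 fibroblast markers summed to 3085 to 9163 in Type 2 Control and 630.2 to 1336 in Type 1 Control tumours, and the 7 mural markers to 2077 to 7874 and 1227 to 1872 in the same order. Of the 8 endothelial markers 0 passed, with sums of 1659 to 3711 in Type 2 Control and 1389.98 to 1638 in Type 1 Control tumours. Of 8 neuron markers 3 were lower in Type 2 Control, with sums of 1066 to 6646 in Type 2 Control and 7604 to 20194 in Type 1 Control tumours. The smallest adjusted p of the marker lists was that of Sox10, which was higher in Type 2 Control and was the 1 of 6 glioma and precursor markers past the test (4.56, adjusted p = 9.31e-05), and their sums were 4468 to 14249 in Type 2 Control and 577 to 4024 in Type 1 Control tumours. Of 6 oligodendrocyte markers Cnp was higher (2.11, adjusted p = 0.0291), with sums of 3034 to 15493 in Type 2 Control and 989 to 6465 in Type 1 Control tumours. Of 10 macrophage markers 0 passed the test, and all 10 had a fold change above 0 (median 1.17). At an unadjusted p under 0.05 (limma-trend), 7 of these 10 were higher, where 8.47% of all genes were. They summed to 2656 to 7848 in Type 2 Control and 1428 to 2772 in Type 1 Control tumours. No marker of these lists was at 0 in a control library, and their part in the 8 calls was not tested.

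After depletion the 2 tumour kinds differed by 1 gene of the 37. Lama1 was higher in Type 2 TAM depleted tumours, where 0.0567% of all genes were higher and 0.128% lower (limma-trend). It had counts of 336, 169, 273 and 180.3 in Type 2 TAM depleted and 65.1, 33.3 and 60.2 in Type 1 TAM depleted tumours, with no overlap. The difference was 4.46-fold (log2 fold change 2.16 ± 0.34 SE, adjusted p = 0.0119). In the controls Lama1 had 550.5, 277, 388 and 248 in Type 2 Control and 178, 198, 179.97, 229 and 155 in Type 1 Control tumours (0.90, adjusted p = 0.139). Among the low-background depleted tumours alone (2 against 3) its log2 fold change was 2.21 (adjusted p = 0.359), and without Type 1 TAM depleted tumour 2 it was 1.86 (adjusted p = 0.135). The log2 fold change was 0.24 (adjusted p = 0.797) for Itga1 and 0.81 (adjusted p = 0.355) for Lama4. Of the related lists, Lims2 among 21 adaptors (2.65, adjusted p = 0.024) was higher in Type 2 TAM depleted tumours, and 0 of 12 basement membrane partners and 0 of 15 ligands passed. Of 6 fibroblast markers, Lum (2.62, adjusted p = 0.0221) and Col3a1 (2.88, adjusted p = 0.0246) were higher, and the 6 summed to 1139 to 4343 in Type 2 TAM depleted and 445 to 936 in Type 1 TAM depleted tumours. The part of fibroblasts in the Lama1 difference was not tested.

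Across all 16 libraries the genes whose levels ran most like Itgb2 were Lgals9, a galectin (Pearson r = 0.95), Mpeg1, a macrophage pore protein (0.93), C1qa, a complement chain (0.92), Laptm5, a lysosomal protein of blood cells (0.92), and C1qc (0.91), the highest of 13985 genes with a mean of 50 or more. This is a description over libraries that share groups, depth and background, and no p is given.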

How the data were processed

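Bulk RNA-seq was measured in 16 tumour libraries. Per the labels' protocols, RNA was isolated using TRIzol and the miRNeasy Micro kit, and the SMART-Seq v4 kit, which does not mark strand, was used to make the libraries. The submitters' processing notes name STAR 2.7.8a, GRCm38 and DESeq2. The authors deposited 3 tables of log2 values, of all libraries (26466 genes), of Type 1 (30589) and of Type 2 (26130), normalized separately. The design assumed linear normalized counts, but these log2 values are variance-stabilized, with 1 lowest value per table (3.74, 2.39 and 4.87). From a deposited value v the normalized count was computed by subtracting 2 raised to (lowest - v/2) from 2 raised to v/2 and squaring the result. In 100% of values it was a whole multiple of 1 step per library (tolerance 0.05 reads), which gave the reads. Levels per kb divide by exon length in GENCODE vM21.

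The test was limma-trend (limma 3.58.1, run in R 4.3.3) on log2(normalized count + 1), a single model of the 4 group means. It took in the 26463 genes that reached a normalized count of 10 in 3 or more libraries. P-values were 2-sided and adjusted after Benjamini and Hochberg over all genes tested, with a threshold of 0.05. No count model was run, and limma-voom on the recovered reads was an alternative. The steps were tested on simulated counts. The values of 1 of the 37 genes are not reported here by name, and it stays in the counts and medians. The members and all lists were chosen with earlier results of these data known. Values per library are given for genes past the threshold in a comparison and for 19 genes set by name, and of related lists up to 4 genes past the threshold by smallest p. Every pair of replicates differed by more than sampling noise (chi-square per degree of freedom of 9.07 or more). Reads carry no molecular identifiers. Other alternatives were pseudocounts, filters, scalings, quality weights, blocks, single tables and leaving out each library. The background sets were made from the data and used only as a block or to split libraries, and their use between the controls, between the depleted groups and for the leukocyte minus matrix level was chosen after seeing the data.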

Additional observations from a re-analysis of the deposited data

Results flagged for a closer look

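Single libraries stood apart from the rest of their group for 8 of 111 combinations of a gene and a group of 4 or 5, by the distance to the nearest other library, where chance gives about 1 in 20. Itgb7 had 13.1 normalized counts in Type 2 TAM depleted 1, against 34.4 to 41.3 in the other depleted tumours. It had 192 in Type 2 Control 3, against 75.1 to 81.8 in the other controls. Leaving out either library ended the Itgb7 call, as it did for 15 of the 16 libraries in all. Itga9 had 986 in Type 2 Control 2, where the other controls had 222 to 264. Lamc3 had 123 in Type 2 TAM depleted 2, where the others had 47.8 to 54.1. Type 1 Control 5 was the lowest of its group for Itga3 (55.9, others 125 to 169), Itga7 (101, others 232 to 304) and Itgb8 (267, others 777 to 1074). Itgb4 had 166 in Type 1 Control 3, where the others had 100.2 to 115.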

How the results depend on the processing

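Of the 37 genes, 4 were called in Type 2 depletion, all lower, where 1.24% of all genes were lower. With a filter of 50 it was 7 (2.66% of all genes lower), with quantile scaling 10 (1.9%), with upper quartile scaling 9 (2.33%) and with the background set as a block 11 (4.32%). In the high-background libraries 2 were called (0.321%), and 0 in the low-background libraries and in the table of Type 2 alone, where 0% of all genes were called. When 1 library was left out it was 2 to 6 (0.151% to 1.95% of all genes lower). In Type 1 depletion 0 were called, and 15 with library quality weights and 14 in the Type 1 table alone, where 51.8% and 55.1% of all genes were called. For the difference of the responses 0 were called, and 8 with quality weights (2.83% of all genes). Between the controls 8 were called (3.09% of all genes), and 20 with quality weights, of which 16 were higher and 4 lower (10% and 14.8% of all genes). With 1 library left out it was 5 to 12 (1.93% to 4.31%), the lowest without Type 1 Control 1, 2, 4 or 5 or Type 2 Control 3. Between the depleted groups 1 was called (0.185%), and 2 with quality weights (1.62%), 0 with quantile scaling (0.117%) or low-background libraries (0.0756%), and 0 to 1 with 1 library left out (0.0453% to 0.884%).

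The leukocyte minus matrix level, TAM depleted minus Control, was -0.76 in Type 2, 0.024 in the high-background and -1.54 in the low-background libraries. In Type 1 it was -0.43, 0.054 with quantile scaling and -0.68 to -0.0061 with 1 library left out, the last without Type 1 TAM depleted 3. In Type 1 some fold changes that had not passed turned sign. Itgb2 was at 0.084 with the replicate block, 0.25 in the Type 1 table alone and -0.50 to 0.19 with 1 library left out. Itgax was at -1.04 to 0.32 with 1 library left out. Quantile scaling gave Itgam 0.47 and Itgb1 -0.028. In the Type 1 table alone Itga1 was at 0.032 and Lama4 at 0.10, and Lama4 was at 0.23 with the background set as a block. Quantile scaling gave Itga4 -0.13, Itga5 -0.14, Itga6 -0.25 and Itgav -0.27, and upper quartile scaling gave them -0.14, -0.34, -0.079 and -0.051 and Lamb2 -0.086. Quality weights gave Itga5 -0.092 and Lamb2 -0.15. The background set as a block gave Itga7 -0.38, Itgav -0.72, Itgb8 -0.25 and Lamb2 -0.20. With 1 library left out, Itga5 was at -0.51 to 0.36 and Lamb2 at -0.21 to 0.72. In Type 2, Itga6 was at 0.11 in the low-background libraries, and Lama2 was at -0.26 with quantile and -0.15 with upper quartile scaling and -0.93 in the high-background libraries, and at -0.34 to 0.54 with 1 library left out. The cause was not tested.

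Replicate numbers are shared between groups. Of 14 same-numbered pairs of libraries 10 had deviations with a negative correlation, and 2 of 14 libraries correlated best with their own number. Between the Type 2 groups, pairs 2 and 3, of like background, had correlations of 0.50 and 0.30. Pairs 1 and 4, of unlike background, had -0.67 and -0.60. Since background enters these correlations, they cannot decide whether the numbers pair the tumours. The labels state no such pairing, and none was taken in the main test. With the replicate number as a block, 3 genes were lower in Type 2 depletion, without Itgb7 (adjusted p = 0.105), where 0.333% of all genes were lower. Between the controls 4 were higher, without Itga4 (0.0544), Itga5 (0.119), Lama5 (0.0756) and Lamb2 (0.149), where 0.979% of all genes were higher.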
